A study of Mus musculus with 31 samples.

Results

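The 10 genes described here encode integrin subunits with known roles in the entry of T cells into the central nervous system (CNS) or in their retention there. They were chosen by name, Itga1, Itga4, Itgae, Itgal, Itgav, Itgb1, Itgb2, Itgb3, Itgb7 and Itgb8, out of 31053 gene symbols, and each symbol was present in all 3 deposited count tables. The tables hold RNA sequencing of murine Th17 cells, the interleukin 17 producers among CD4 T cells, with 2000 sorted cells per library. In the first experiment, 6 Cyp11a1 conditional knockout (cKO) libraries were set against 4 Cyp11a1 wild-type (WT) libraries, where Cyp11a1 encodes the enzyme that starts steroid synthesis. In the second, 4 GR cKO libraries were set against 5 GR WT libraries, where GR is the glucocorticoid receptor, encoded by Nr3c1. All 19 of these libraries came from C57/B6 donor T cells carrying the transgenic 2D2 T cell receptor, which recognises a myelin protein. The donor cells were turned into homeostatic Th17 cells (Th17Hom) in culture and transferred into Rag1 KO hosts, which lack T and B cells but keep their myeloid cells. The 2D2+ cells were recovered from brain and spinal cord at the peak of experimental autoimmune encephalomyelitis. The driver of the conditional deletions and the age of the animals are not given in the sources used here. In the third experiment, inflammatory Th17 cells (Th17Inf) made in culture from spleen and lymph node of WT C57/B6 mice were kept for 2 days with TGF-β1 and dexamethasone (TGF-β1 + Dex), with the cytokine TGF-β1, with the synthetic glucocorticoid dexamethasone (Dex), or without addition (Ctrl), at 3 libraries each. Doses are not given, and nothing states that the libraries of a group came from separate animals or cultures, so the p-values measure the spread between libraries, which may be technical.

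Integrins are surface receptors made of an α and a β chain, and the β chain limits which α chains reach the surface. The αLβ2 integrin (LFA-1, Itgal and Itgb2) binds ICAM proteins and holds T cells on vessel walls. The α4 chain (Itga4) joins β1 (Itgb1) to bind VCAM-1 on inflamed brain vessels, the step blocked by antibodies used in multiple sclerosis, or joins β7 (Itgb7) to bind MAdCAM-1 in the gut. The αEβ7 integrin (Itgae and Itgb7, CD103) binds E-cadherin, marks T cells that stay in tissues and is a known TGF-β target in T cells. The αv chain (Itgav) joins β1, β3 (Itgb3) or β8 (Itgb8), and αvβ8 frees active TGF-β from its latent form. The α1 chain (Itga1, CD49a) with β1 binds collagen.

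The total count per library was 4322688 to 5118543 for Cyp11a1, 3552871 to 5623305 for GR and 2769203 to 4291149 for the cultures. Levels are given in CPM, counts scaled to library size, and a gene without counts may still have been present at up to 0.586 to 0.694 CPM for Cyp11a1, 0.534 to 0.844 for GR and 0.699 to 1.08 for culture, depending on the library. These limits, and the intervals given further on, cover counting error only. In GR cKO cells, Nr3c1 averaged 8.43 ± 1.42 CPM, against 14.9 ± 2.38 CPM in GR WT cells (edgeR adjusted p = 0.58). Cyp11a1 had 0 counts in all CNS libraries except Cyp11a1 cKO replicate 2 and GR cKO replicate 2, so its deletion could not be checked. In culture, Tsc22d3, a glucocorticoid target, averaged 115.5 ± 5.16 CPM with Dex against 47.3 ± 2.50 CPM in Ctrl, and Skil, a TGF-β target, 22.6 ± 0.618 CPM with TGF-β1 against 11.2 ± 1.47 CPM in Ctrl, and both passed (edgeR adjusted p = 9.52e-05 and 0.00183). Fkbp5 and Smad7, a second target of each agent, stood at 8.36 CPM with Dex against 4.35 in Ctrl and at 5.80 CPM with TGF-β1 against 4.42 in Ctrl, and did not pass (edgeR adjusted p = 0.132 and 0.665). T cell markers other than Trbc2, 9 genes, also differed between experiments. They summed to 7972 to 9299 CPM in Cyp11a1 cKO and 8135 to 9319 CPM in Cyp11a1 WT. The sums were 4992.5 to 5520.5 CPM in GR cKO, 3900 to 5427 CPM in GR WT and 2609 to 2758.5 CPM in culture. Summed markers of myeloid cells and microglia, 20 genes, differed most between experiments, at 11803 to 23934 CPM in GR cKO and 4904 to 22791 CPM in GR WT, 728 to 1451 CPM in Cyp11a1 cKO and 495 to 762 CPM in Cyp11a1 WT, and 49.2 to 67.7 CPM in culture.

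Of the 10 genes, Itgb2, Itgb7 and Itgal were the most highly expressed per length of exon in every group. In Cyp11a1 WT cells Itgb7 stood at 115 ± 3.64 CPM per kb, Itgb2 at 98.5 ± 7.70 and Itgal at 23.8 ± 1.06 CPM per kb, and these did not overlap between libraries (n = 4). In GR WT cells Itgb2 came first at 98.0 ± 12.7 CPM per kb with Itgb7 at 86.9 ± 10.6, which overlapped, and Itgal followed at 19.3 ± 3.10 CPM per kb (n = 5). The Ctrl cultures had Itgb2 at 71.4 ± 1.68, Itgb7 at 36.8 ± 6.99 and Itgal at 10.9 ± 0.635 CPM per kb (n = 3), again without overlap. Below these stood Itgae, Itgb1, Itga4, Itgav and Itgb3, between 0.670 and 7.33 CPM per kb in the WT groups of the CNS. Overlap was examined only between genes next to each other by mean level in a group. Among such neighbours Itgae and Itgb1 overlapped in both WT groups, as did Itgb1 and Itga4 in Cyp11a1 WT, Itgae and Itga4 in GR WT and Itgav and Itgb3 in GR WT. Genes further apart in mean level can overlap as well. In Ctrl the order was Itgb1 at 2.25, Itgav at 2.19 and Itgb3 at 1.60 CPM per kb, each overlapping its neighbour, then Itga4 at 0.445 and Itgae at 0.181 CPM per kb.

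**Figure D1:**
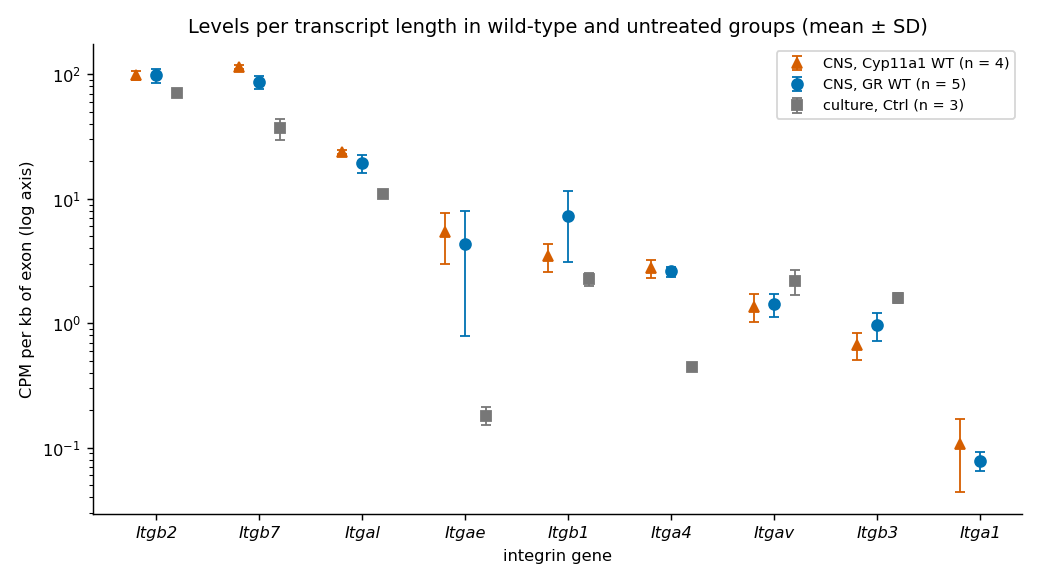
Levels of 9 integrin genes in the WT groups of both CNS experiments and in the Ctrl cultures, as CPM per kb of exon on a log axis, with group means as symbols and SD as bars. Itgb2, Itgb7 and Itgal lie above the rest in each group, Itga1 has no point in culture because it had 0 counts there, and Itgb8, with at most 3 counts in a library, is not drawn.

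Itga1 and Itgb8 were at or near 0. Itga1 had 0 counts in all 12 culture libraries, 7 to 15 counts in Cyp11a1 cKO and 4 to 19 in Cyp11a1 WT libraries, and 4 to 11 counts in GR cKO and 4 to 9 in GR WT libraries. Its exons overlap those of Gm49395 on the same strand, so its counts are uncertain. Itgb8, the chain of the TGF-β-activating αvβ8 integrin, had between 0 and 3 counts in each of the 31 libraries.

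The CNS cells and the cultured cells differ in experiment, starting state and sequencing table, so the following values describe these libraries and were not tested. Itga4 averaged 38.7 CPM in Cyp11a1 WT and 36.5 CPM in GR WT cells, against 6.22 CPM in Ctrl, which is 6.22-fold and 5.87-fold as high. Itgb7 was 3.12-fold and 2.36-fold, and Itgal 2.19-fold and 1.78-fold, as high in the same WT groups as in Ctrl. Itgb1 was 1.54-fold and 3.25-fold, and Itgb2 1.38-fold and 1.37-fold, as high. Itgae averaged 24.7 CPM in Cyp11a1 WT and 19.9 CPM in GR WT cells, against 0.830 CPM in Ctrl. Itgb3 stood at 0.419-fold and 0.603-fold, and Itgav at 0.621-fold and 0.646-fold, of the Ctrl level. Itga4, Itgae, Itgb7, Itgal, Itgb1 and Itgb2 thus had the higher mean levels in the CNS WT groups, and Itgav and Itgb3 in the Ctrl cultures. The summed T cell markers other than Trbc2 were higher in the CNS as well. Their medians were 8645 CPM in Cyp11a1 WT and 4496 CPM in GR WT, against 2697 CPM in Ctrl. The part of this shift in the integrin values was not tested.

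The culture experiment asks which integrin genes respond to TGF-β1, to a glucocorticoid and to both. With TGF-β1 alone Itgae and Itgb2 rose and Itgb3 fell relative to Ctrl, and with TGF-β1 + Dex Itgb2 and Itgal rose and Itgb3 fell. With Dex alone no member passed. The summed markers of NK and CD8 T cells, 10 genes, also differed between these cultures, at 17.3 to 27.6 CPM with TGF-β1 + Dex, 10.6 to 11.9 CPM with TGF-β1 and 22.8 to 29.0 CPM with Dex, against 22.6 to 23.4 CPM in Ctrl, and their part in the integrin values was not tested. Of the 10 members, 8 passed the low-count filter and were tested. Itgae passed it through the TGF-β1 group only and Itgb3 through the Ctrl and Dex groups only, so that their differences helped to select them. The members called numbered 3 for TGF-β1 + Dex against Ctrl, where 6.25% of 10332 genes were called, 3 for TGF-β1 against Ctrl, where 3.29% were called, and 0 for Dex against Ctrl, where 1.83% were called. They numbered 0 for TGF-β1 + Dex against TGF-β1, where 0.532% of genes were called, and 2 for TGF-β1 + Dex against Dex, where 2.62% were called. These comparisons share groups, 3 of them the Ctrl libraries, and are not independent of each other. The members not named here did not pass in any of them.

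Itgb2 (chromosome 10, 77530252 to 77565708, GRCm38), the β chain of LFA-1, stood at 291, 303 and 284 CPM with TGF-β1 + Dex and at 274, 294 and 296 CPM with TGF-β1. Its level was 209.5, 192 and 185 CPM with Dex and 213, 223 and 218 CPM in Ctrl. Every library with TGF-β1 lay above every library without it, and the Dex libraries lay below all Ctrl libraries. For this and the other culture genes, the share of all tested genes whose groups did not overlap was not counted. With 3 libraries a group, such separation alone is weak evidence. The log2 fold change was 0.42 ± 0.06 for TGF-β1 + Dex against Ctrl, 0.40 ± 0.06 for TGF-β1 against Ctrl and 0.58 ± 0.06 for TGF-β1 + Dex against Dex (edgeR adjusted p = 0.000777, 0.00191 and 0.000163). The fall with Dex, −0.16 ± 0.06, did not pass (edgeR adjusted p = 0.266), and TGF-β1 + Dex differed from TGF-β1 by 0.02 ± 0.06.

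Itgal (chromosome 7, 127296260 to 127335138), the α chain of LFA-1, stood at 88.1, 88.5 and 93.1 CPM with TGF-β1 + Dex, at 78.2, 82.1 and 89.6 CPM with TGF-β1, at 79.3, 83.2 and 74.8 CPM with Dex, and at 68.2, 70.0 and 76.2 CPM in Ctrl. The libraries with both agents lay above all Ctrl libraries, as did those with TGF-β1, while those with Dex overlapped Ctrl. The log2 fold change was 0.33 ± 0.08 with both (edgeR adjusted p = 0.0276), 0.22 ± 0.08 with TGF-β1 and 0.14 ± 0.08 with Dex (edgeR adjusted p = 0.208 and 0.485). The call with both agents was lost without Ctrl replicate 1 or 2 or any 1 TGF-β1 + Dex library (edgeR adjusted p between 0.0541 and 0.0949), and also in DESeq2, without a low-count filter and with the compared groups alone (adjusted p = 0.0696, 0.0821 and 0.0642). Over all alternatives beside the left-out libraries its adjusted p ran from 0.0148 to 0.0821.

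Itgb3 (chromosome 11, 104608000 to 104670476), the β chain of the vitronectin receptor αvβ3, was the member with the largest fall. It had 1.70, 1.75 and 1.90 CPM with TGF-β1 + Dex, 2.27, 2.60 and 3.93 CPM with TGF-β1, 5.25, 7.12 and 5.53 CPM with Dex, and 8.75, 10.4 and 9.25 CPM in Ctrl. The 4 groups did not overlap, in the order of both agents, TGF-β1, Dex and Ctrl. The log2 fold change was −2.38 ± 0.25 with both and −1.66 ± 0.24 with TGF-β1 (edgeR adjusted p = 7.79e-05 and 0.00135), and −1.72 ± 0.27 between both agents and Dex (edgeR adjusted p = 0.00311). Dex alone gave −0.66 ± 0.21 (edgeR adjusted p = 0.161), and both agents against TGF-β1 gave −0.71 ± 0.30 (edgeR adjusted p = 0.611). The counts behind these levels were 19 over the 3 libraries with both, 28 with TGF-β1, 60 with Dex and 101 in Ctrl. From counts alone, the ratio of TGF-β1 + Dex to Ctrl was 0.190, with an exact 95% interval of 0.110 to 0.312. Itgb3 passed the low-count filter through the Ctrl and Dex groups only, so its difference helped to select it for the test. Itgb3 is also a gene of platelets and mast cells. Summed markers of these and of endothelial cells, 10 genes of which 6 or 7 were at 0 in each group, ran from 11.5 to 13.5 CPM with both agents, 13.3 to 17.3 with TGF-β1, 10.7 to 17.3 with Dex and 12.4 to 15.0 CPM in Ctrl. The 2 tested markers of this list moved in opposite directions without passing. Kit, a mast cell receptor, averaged 3.98 ± 0.229 CPM with both agents and 6.06 ± 1.38 CPM with TGF-β1, against 1.14 ± 1.75 CPM in Ctrl (edgeR adjusted p = 0.145 and 0.0700). Pecam1, an adhesion molecule of endothelial cells and platelets, averaged 8.18 ± 0.931 CPM with both agents and 8.85 ± 0.9501 CPM with TGF-β1, against 12.7 ± 1.54 CPM in Ctrl (edgeR adjusted p = 0.0959 and 0.256), and lay below all Ctrl libraries, as Itgb3 did. The part of such cells in the Itgb3 levels was not tested.

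Itgav (chromosome 2, 83724397 to 83806916), the α partner of β3, stood at 19.6 to 34.3 CPM with TGF-β1 + Dex, 22.0 to 29.0 with TGF-β1, 26.3 to 32.8 with Dex and 17.5 to 27.0 CPM in Ctrl, and the groups overlapped. Its largest difference in culture was with Dex, a log2 fold change of 0.35 ± 0.21 (edgeR adjusted p = 0.529).

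Itgae (chromosome 11, 73090583 to 73147446) was the member with the largest rise. It had 10, 17 and 22 counts with TGF-β1, or 3.78, 4.92 and 6.66 CPM, and 4, 3 and 12 counts with TGF-β1 + Dex, or 1.36, 1.05 and 2.53 CPM. With Dex it had 0, 3 and 2 counts and in Ctrl 2, 3 and 4 counts, which is between 0 and 0.974 CPM and close to the limit of what a library could show. The TGF-β1 libraries lay above all others. The log2 fold change of TGF-β1 against Ctrl was 2.56 ± 0.55 (edgeR adjusted p = 0.0204), and the ratio of counts alone was 6.15 with an exact 95% interval of 2.99 to 14.2. Itgae passed the low-count filter through the TGF-β1 group only, so its rise helped to select it for the test. The call was lost without any 1 Ctrl or TGF-β1 library (edgeR adjusted p between 0.0535 and 0.137), while the log2 fold change stayed between 2.33 and 2.73. Over the other alternatives that tested it the adjusted p ran from 0.0103 to 0.0323. TGF-β1 + Dex lay below TGF-β1 in every library, with a log2 fold change of −1.55 ± 0.49 that did not pass (edgeR adjusted p = 0.275), and stood at 1.01 ± 0.61 against Ctrl (edgeR adjusted p = 0.43). The ratio of counts with both agents to those with TGF-β1 was 0.346, with an exact 95% interval of 0.192 to 0.598 that covers counting error only. The high TGF-β1 group that let Itgae through the filter also enters this ratio. The ratio is therefore no separate support for a fall.

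Itgb7 (chromosome 15, 102215995 to 102231944), the only β partner of αE, stood at 85.9 to 116 CPM with TGF-β1 + Dex, 79.3 to 119 with TGF-β1, 88.8 to 135 with Dex and 79.8 to 116 CPM in Ctrl. The groups overlapped, and its log2 fold changes against Ctrl were 0.03 ± 0.19, −0.03 ± 0.19 and 0.20 ± 0.19 (edgeR adjusted p between 0.740 and 0.978). Itga4 (chromosome 2, 79255426 to 79333123) had 3.74 to 6.30 CPM with both agents, 3.93 to 8.96 with TGF-β1, 4.01 to 7.48 with Dex and 6.09 to 6.30 CPM in Ctrl. Itgb1 (chromosome 8, 128685654 to 128733200) had 8.39 to 12.2 CPM with both agents, 7.57 to 8.31 with TGF-β1, 9.43 to 14.2 with Dex and 8.40 to 10.5 in Ctrl. The TGF-β1 libraries lay just below all others for Itgb1, and the groups of Itga4 overlapped. Neither α4 nor β1 passed against Ctrl (edgeR adjusted p between 0.621 and 0.993 for Itga4 and between 0.676 and 0.955 for Itgb1).

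**Figure D2:**
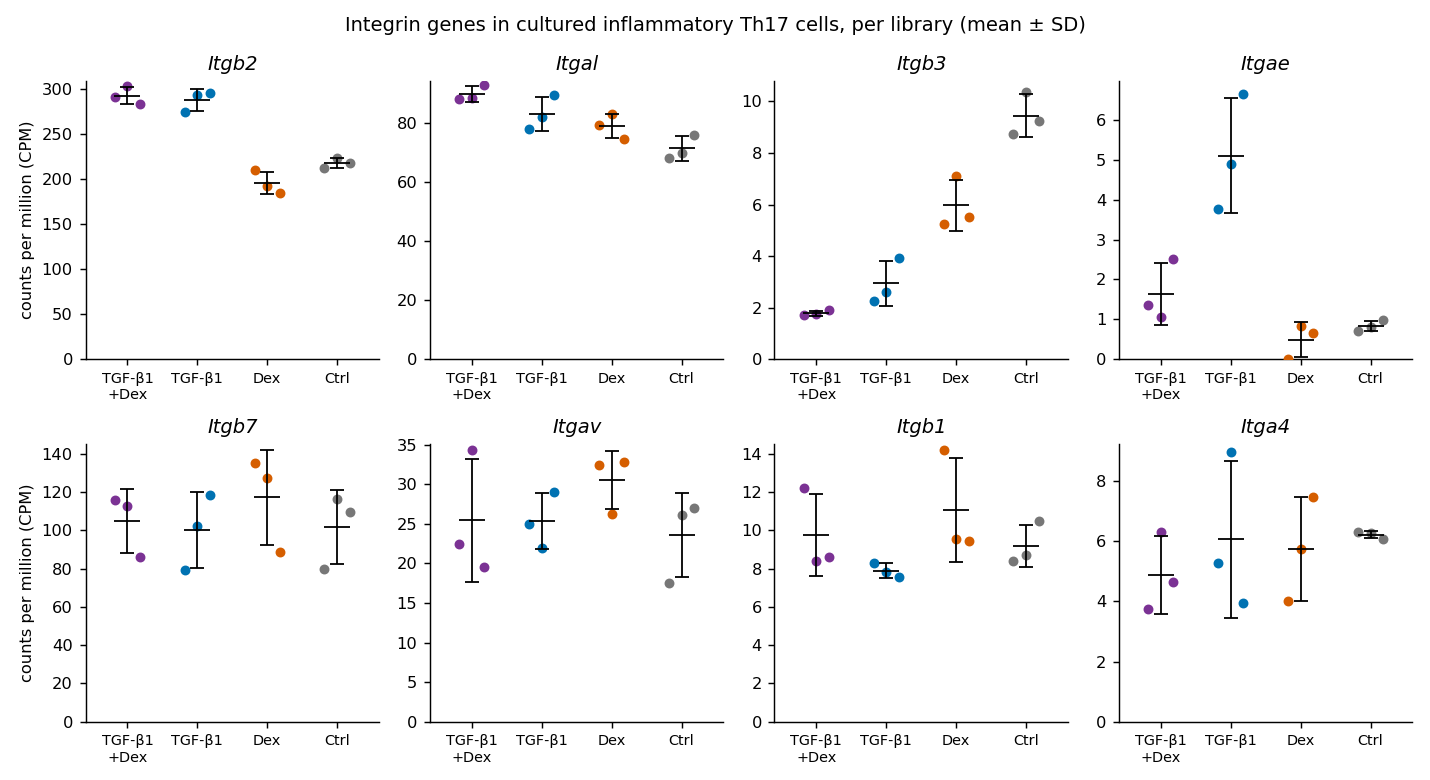
CPM of the 8 tested integrin genes in each culture library, with TGF-β1 + Dex, TGF-β1, Dex and Ctrl from left to right, group means as horizontal lines and SD as bars (n = 3 each). Itgb2 is higher with TGF-β1 with or without Dex, Itgb3 is lower, and Itgae is high with TGF-β1 alone at 3.78 to 6.66 CPM.

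The interaction term, which asks whether the effect of both agents differs from the sum of each alone on the log2 scale, called 0 members and 0% of 10332 genes in edgeR. Unadjusted, 552 genes had p below 0.05, none of them a member, and the lowest adjusted p was 0.0978. DESeq2 and limma voom called 0 members as well. The term was −0.84 ± 0.99 for Itgae, 0.18 ± 0.08 for Itgb2 and −0.05 ± 0.32 for Itgb3 (edgeR adjusted p = 1.00, 0.909 and 1.00).

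The genes most like Itgb2 across the 12 culture libraries, by the root mean square distance of centred log2 CPM, were Stat3, the transcription factor downstream of interleukin 6 and 23, at 0.0781, Actr1b, a dynactin subunit gene, at 0.0917, and Acot7, an acyl-CoA thioesterase gene, at 0.100, where Itgb2 itself had an SD of 0.257. Those most like Itgb3 were Ccdc184 at 0.206, Rab19 at 0.233 and Tigit, a co-inhibitory receptor of T cells, at 0.275, where Itgb3 had an SD of 0.822. The libraries share the treatments and 1 sequencing table, and no test was made.

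Among the other 16 integrin subunit genes, 6 were tested in culture and 0 were called in any comparison. The adhesion machinery around the integrins moved in both directions. Of 16 tested genes for integrin activation, 3 rose and 3 fell with TGF-β1 + Dex against Ctrl, and 2 rose and 3 fell with TGF-β1 against Ctrl. Cyth1 and Cytip, which encode an activator of β2 integrins and a protein that binds it, rose with both agents by 0.66 ± 0.09 and 0.53 ± 0.06 on the log2 scale (edgeR adjusted p = 0.000777 and 8.61e-05) and with TGF-β1 by 0.39 ± 0.09 and 0.30 ± 0.06 (edgeR adjusted p = 0.0421 and 0.0111). Rassf5, which links the GTPase Rap1 to LFA-1, fell to 47.9 ± 3.63 CPM with both agents and 57.2 ± 3.60 CPM with TGF-β1, against 80.9 ± 5.39 CPM in Ctrl (edgeR adjusted p = 0.0002 and 0.00652). Fyb, which encodes the adaptor ADAP, fell with both agents by 0.50 ± 0.12 and with TGF-β1 by 0.58 ± 0.12 (edgeR adjusted p = 0.0206 and 0.0144), and its partner Skap1 fell with both agents by 0.44 ± 0.10 and with TGF-β1 by 0.42 ± 0.10 (edgeR adjusted p = 0.0147 and 0.0304). The median log2 change of the list was −0.04 with both agents and −0.01 with TGF-β1, against 0.00 over all tested genes in each. With Dex alone 1 of the 16 rose, Cytip at 529.5 ± 6.87 CPM against 409 ± 4.53 CPM in Ctrl (edgeR adjusted p = 0.00543), and with both agents against Dex 1 rose, Cyth1, and 1 fell, Rassf5.

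Of 14 tested genes for adaptors on the cytoplasmic tails, Pxn, which encodes paxillin, rose with TGF-β1 by 0.67 ± 0.14 (edgeR adjusted p = 0.0171) and with both agents by 0.57 ± 0.14 (edgeR adjusted p = 0.0267), while Lims1 fell with both by 0.46 ± 0.12 (edgeR adjusted p = 0.0327) and 0 were called with Dex. Of 5 tested ligand genes, Icam2, a ligand of LFA-1, rose to 20.3 ± 2.23 CPM with both agents against 8.61 ± 1.40 CPM in Ctrl, and Spp1, the αv and α4 ligand osteopontin, fell to 4.38 ± 2.87 CPM against 19.9 ± 8.51 CPM in Ctrl (edgeR adjusted p = 0.00493 and 0.0174). With TGF-β1 or Dex alone 0 ligand genes were called. Spp1 was also lower with each agent alone, at 5.13 ± 1.94 CPM with Dex and 10.5 ± 5.79 CPM with TGF-β1 (edgeR adjusted p = 0.0658 and 0.352). Cd44, the receptor for hyaluronan, was not the only gene for other homing receptors called with TGF-β1, and rose to 101 ± 5.69 CPM against 69.5 ± 2.31 CPM in Ctrl (edgeR adjusted p = 0.027). Of 7 tested genes for making and activating latent TGF-β, the setting in which αv integrins act, 2 rose with Dex, 1 with TGF-β1 and 2 with both against Ctrl, and 0 fell. Tgfb3 rose with Dex to 24.7 ± 4.84 CPM against 10.8 ± 2.50 CPM in Ctrl (edgeR adjusted p = 0.0106), Lrrc32, which tethers latent TGF-β to the cell surface, rose with Dex to 45.0 ± 5.32 CPM against 30.3 ± 0.589 CPM in Ctrl (edgeR adjusted p = 0.041), and Furin, which cuts the TGF-β precursor, rose with TGF-β1 by 0.73 ± 0.18 (edgeR adjusted p = 0.0421).

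**Figure D3:**
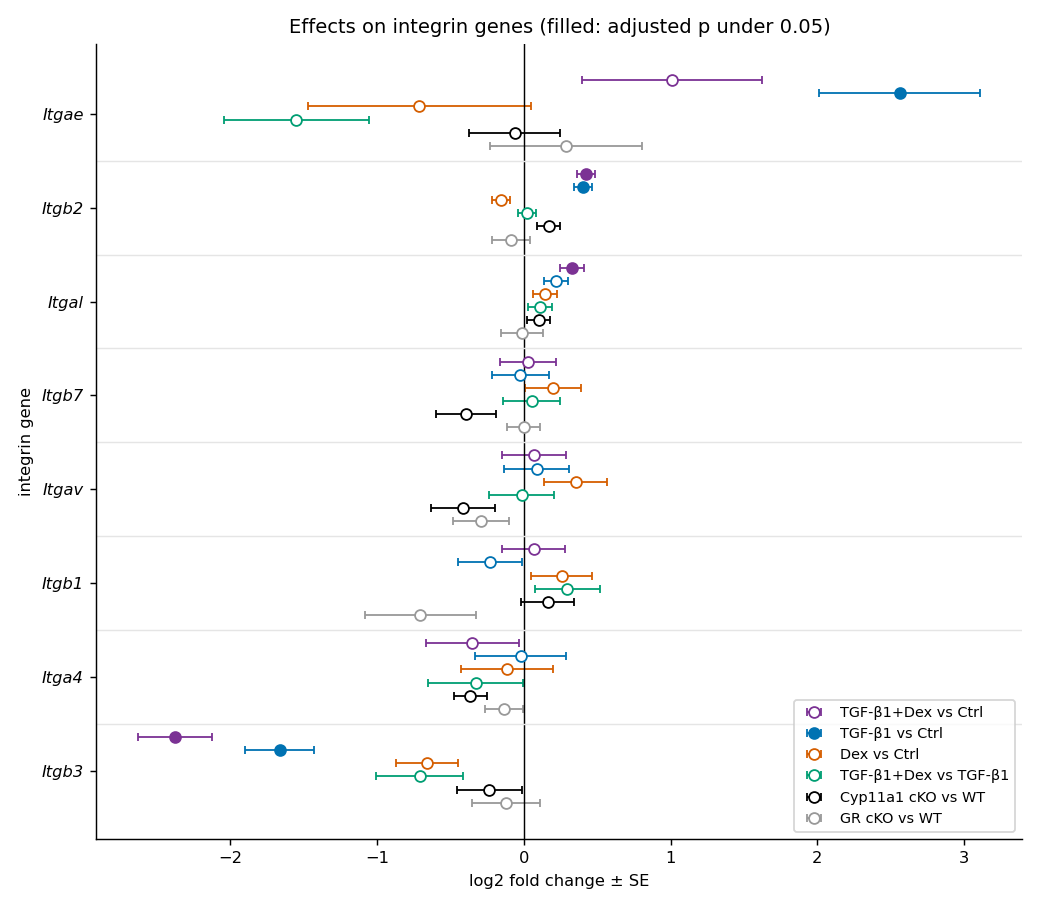
Log2 fold changes ± SE of 8 integrin genes for 4 culture comparisons and both genotype comparisons, with filled symbols for an edgeR adjusted p under 0.05. The called values lie at Itgae, Itgb2, Itgal and Itgb3 in culture, and no genotype symbol is filled.

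The Cyp11a1 comparison sets integrin transcripts of cells labelled Cyp11a1 cKO against those of cells labelled WT in the inflamed CNS. No member passed: 0 of 9 tested were called, where 0.178% of 10125 genes were. DESeq2 and limma voom also called 0 members, and 2 members, Itga4 and Itgb2, had an unadjusted p below 0.05. In 2 of the 9, Itga4 and Itgb7, the chains of the α4β7 integrin, the libraries of the groups did not overlap, where 1.97% of all tested genes did not overlap. In bulk samples such as these, fewer cells of a type and less RNA per cell cannot be told apart.

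Itga4 stood at 26.7, 28.9, 29.5, 30.9, 31.2 and 32.4 CPM in Cyp11a1 cKO libraries, against 33.0, 33.5, 41.9 and 46.4 CPM in Cyp11a1 WT libraries. All cKO libraries lay below all WT libraries. The log2 fold change was −0.36 ± 0.11 (edgeR adjusted p = 0.366). Its exons overlap those of Cerkl on the opposite strand, and the library protocol keeps no strand, so reads of these genes cannot be told apart where they overlap. Cerkl, singled out after its values were seen, stood at 5.88 ± 1.83 CPM in cKO and 10.8 ± 3.90 CPM in WT (edgeR adjusted p = 0.366). Without WT replicates 1 and 4, chosen after seeing the data as the WT libraries highest in the regulatory T cell gene Foxp3, the Itga4 value was −0.15 ± 0.11. Replicates 1 and 4 were also the WT libraries highest in Itga4, at 41.9 and 46.4 CPM, so the smaller difference followed from the choice itself. The part of regulatory T cells in the Itga4 levels was not tested.

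Itgb7 stood at 119, 202, 264, 279, 287 and 299 CPM in Cyp11a1 cKO libraries, against 308, 312, 317 and 331 CPM in Cyp11a1 WT libraries. Replicates 5 and 6 of cKO were the lowest, and the other 4 lay just under the WT libraries. The log2 fold change was −0.39 ± 0.20 (edgeR adjusted p = 0.701), and −0.17 ± 0.07 without cKO replicates 5 and 6, also chosen after seeing the data. Across cKO libraries the summed myeloid markers lay between 728 and 1451 CPM, and across WT libraries between 495 and 762 CPM. The 10 summed markers of NK and CD8 T cells lay between 196 and 483 CPM in cKO and between 77.0 and 323 CPM in WT. Of 18 tested myeloid markers 3 passed, all higher in cKO, namely C1qa, C1qb and Fcer1g, named after their values were seen (log2 fold changes 0.89 ± 0.15, 0.92 ± 0.15 and 1.02 ± 0.18, edgeR adjusted p = 0.0266, 0.0266 and 0.0367), and the median of the 18 was 0.72 against 0.00 over all tested genes. The part of these cells in the integrin values was not tested. With the myeloid sum as a covariate Itga4 stood at −0.48 ± 0.16 and Itgb7 at −0.15 ± 0.28 (edgeR adjusted p = 0.213 and 0.861).

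The promoters of Itga4 and Itgb7 are shown because both genes of the α4β7 integrin lay lower in all 6 cKO libraries, a choice made after their values were seen. Each run is the 250 bases before the annotated start from RefSeq on GRCm38.p6, which held 6 of the 10 members, at chr2:79255176-79255425 on the plus strand for Itga4 and chr15:102231936-102232185 on the minus strand for Itgb7. Capitals mark matches on either strand to the Smad-type motif CAGAC, its complement reading GTCTG, and to the glucocorticoid receptor-type motif TGTTCT.
Itga4: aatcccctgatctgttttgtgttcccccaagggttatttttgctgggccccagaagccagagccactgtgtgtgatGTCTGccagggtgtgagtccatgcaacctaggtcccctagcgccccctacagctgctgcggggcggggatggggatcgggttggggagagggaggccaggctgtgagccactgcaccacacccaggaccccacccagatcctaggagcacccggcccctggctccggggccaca
Itgb7: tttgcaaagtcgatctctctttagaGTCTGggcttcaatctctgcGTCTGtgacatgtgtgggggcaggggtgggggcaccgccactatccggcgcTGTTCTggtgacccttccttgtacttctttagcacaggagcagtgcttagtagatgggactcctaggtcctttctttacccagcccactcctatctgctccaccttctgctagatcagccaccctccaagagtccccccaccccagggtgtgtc
The Itga4 window held 1 match to CAGAC and 0 to TGTTCT. The Itgb7 window held 2 matches to CAGAC and 1 to TGTTCT, 154 bases before the start. Of 32851 promoter windows of the same length, 42.2% held CAGAC, 16.1% held TGTTCT and 6.75% held the AP-1 motif TGANTCA, which neither window held. None of these motifs overlapped another in the windows shown.

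The β2 integrin genes were slightly higher in Cyp11a1 cKO cells without passing. Itgb2 stood at 310, 316, 335, 342, 345 and 379 CPM in cKO against 268, 304, 307 and 323 CPM in WT, and the groups overlapped (log2 fold change 0.17 ± 0.08, edgeR adjusted p = 0.606). Itgal had 168 ± 14.6 CPM in cKO and 157 ± 6.96 CPM in WT. Itgav had 10.8 ± 2.99 CPM in cKO and 14.6 ± 3.69 CPM in WT (log2 fold change −0.41 ± 0.22, edgeR adjusted p = 0.709). Itgb1, Itgb3 and Itga1 had log2 fold changes of 0.16 ± 0.18, −0.23 ± 0.22 and 0.25 ± 0.36 with overlapping groups (edgeR adjusted p between 0.867 and 0.909).

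Itgae did not pass and varied widely within both groups. It stood at 21.9, 37.2, 23.2, 26.0, 19.7 and 12.7 CPM in Cyp11a1 cKO replicates 1 to 6, against 34.3, 14.5, 16.0 and 33.9 CPM in Cyp11a1 WT replicates 1 to 4 (log2 fold change −0.06 ± 0.31, edgeR adjusted p = 0.978). Foxp3, the regulatory T cell gene singled out after its values were seen, stood at 4.56, 26.7, 8.60, 3.20, 9.06 and 8.11 CPM in the same cKO libraries and 59.2, 14.1, 9.22 and 42.9 CPM in the same WT libraries. The highest cKO library and the highest WT libraries for Itgae were the highest for Foxp3 as well. Without WT replicates 1 and 4 the Itgae value turned to 0.61 ± 0.31 and did not pass (edgeR adjusted p = 0.733). Since these were the WT libraries highest in Itgae, this upward move followed from the choice itself. The part of regulatory T cells in the Itgae levels was not tested.

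The GR comparison does the same for cells labelled GR cKO, in which Nr3c1 was still detected in every library, at 6.76 to 10.2 CPM against 13.0 to 18.9 CPM in GR WT. None of 8 tested members was called, where 0% of 10597 genes were in edgeR. Unadjusted, p was below 0.05 for 870 genes and 0 members, and the lowest adjusted p was 0.455. DESeq2 and limma voom called 0 members too. The groups of all 8 members overlapped, while 2.25% of tested genes did not overlap. Itgb7 was level between the groups, at 240.4 ± 8.22 CPM in GR cKO and 240.6 ± 29.4 CPM in GR WT, as was Itgal at 126 ± 16.7 CPM in cKO and 127 ± 20.4 CPM in WT. Itgb2 stood at 281 ± 37.7 CPM in cKO and 299 ± 38.7 CPM in WT, and Itga4 at 33.2 ± 4.90 CPM in cKO and 36.5 ± 3.36 CPM in WT. Itgav had 12.3 ± 2.04 CPM in cKO and 15.2 ± 3.10 CPM in WT, and Itgb3 5.31 ± 0.917 CPM in cKO and 5.70 ± 1.43 CPM in WT. The log2 fold changes of these 6 genes lay between −0.29 ± 0.19 for Itgav and −0.00 ± 0.11 for Itgb7 (edgeR adjusted p between 0.620 and 0.997).

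**Figure D4:**
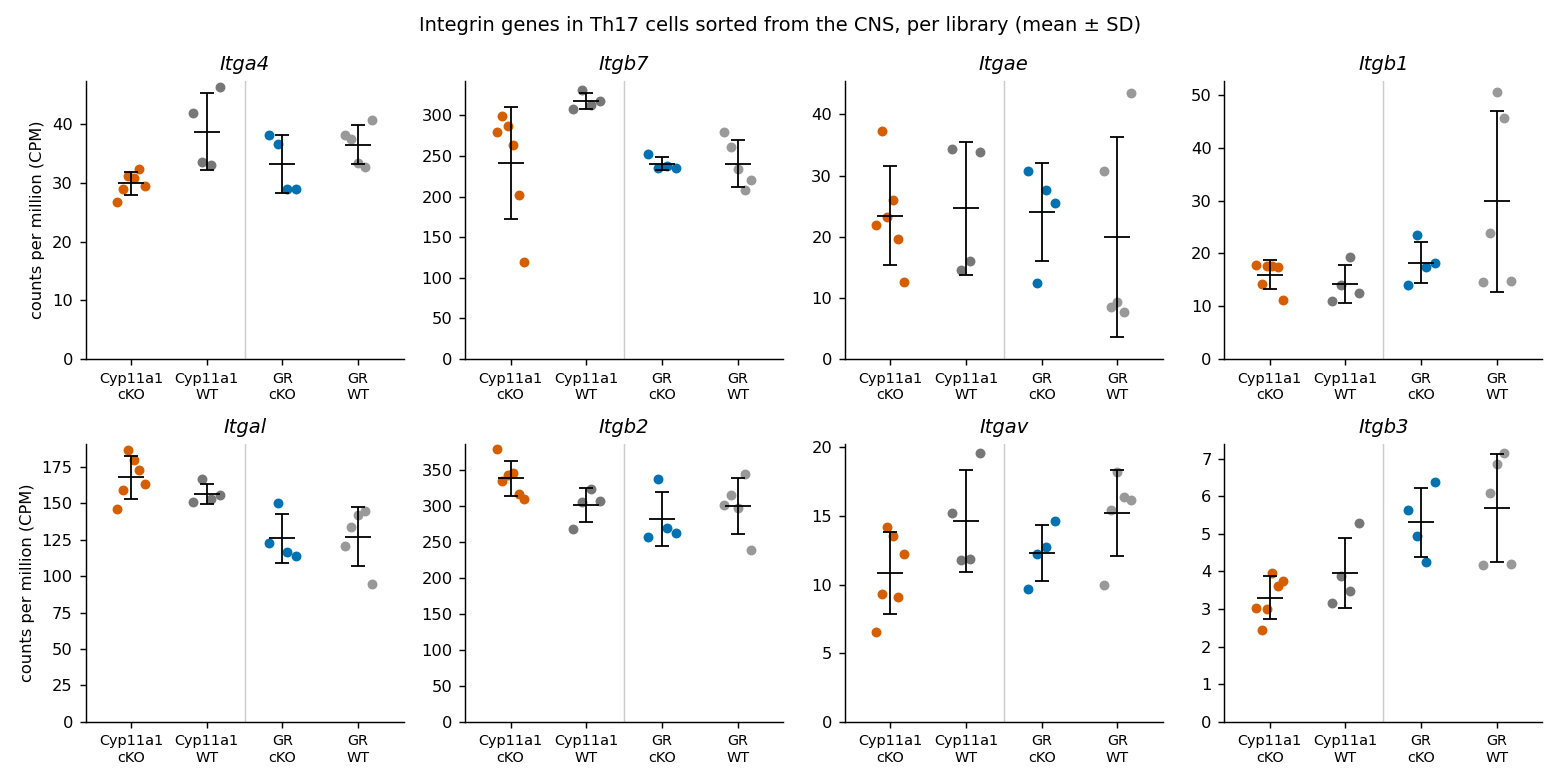
CPM of 8 integrin genes in each CNS library, with Cyp11a1 cKO left of Cyp11a1 WT and GR cKO left of GR WT, group means as horizontal lines and SD as bars (n = 6, 4, 4 and 5). Itga4 and Itgb7 do not overlap between Cyp11a1 cKO and WT, and Itgae and Itgb1 spread most within GR WT relative to their means.

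Relative to their means, Itgb1 and Itgae spread most of the 8 tested members within GR WT. Itgb1, the common β1 chain, stood at 14.1, 23.4, 17.4 and 18.1 CPM in GR cKO replicates 1 to 4, against 14.7, 23.9, 50.6, 45.5 and 14.7 CPM in GR WT replicates 1 to 5 (log2 fold change −0.71 ± 0.38, edgeR adjusted p = 0.583). Itgae stood at 30.7, 12.4, 27.6 and 25.6 CPM in the same cKO libraries and 30.8, 8.51, 9.27, 7.68 and 43.5 CPM in the same WT libraries (log2 fold change 0.29 ± 0.52, edgeR adjusted p = 0.866). The summed myeloid markers were 18017, 11803, 23934 and 23204 CPM in the cKO libraries and 19965, 10090, 4904, 6470 and 22791 CPM in the WT libraries. The WT libraries with the highest Itgb1 had the lowest myeloid sums, and the 5 libraries with the highest myeloid sums had the 5 highest Itgae levels. Foxp3 ran from 19.1 to 36.3 CPM in cKO and stood at 34.1, 13.6, 14.5, 14.1 and 53.6 CPM in the WT libraries, so that WT replicates 1 and 5 were high and WT replicates 2, 3 and 4 low for both Itgae and Foxp3. Itgam and Itgax, α chains of myeloid cells that also join β2, stood at 41.7 to 59.5 and 8.58 to 17.2 CPM in cKO and at 32.5 to 65.2 and 4.08 to 21.2 CPM in WT, and had 0 counts in culture. The part of myeloid cells in these integrin levels was not tested.

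With the myeloid sum as a covariate, the GR values of Itgb1 and Itgae turned to 0.12 ± 0.18 and −0.33 ± 0.26, and those of Itgal, Itgb2 and Itgb3 to 0.18 ± 0.10, 0.04 ± 0.11 and 0.15 ± 0.23 (edgeR adjusted p = 1.00 for each). The direction of these 5 genes in the GR comparison was therefore not stable under this covariate. Without WT replicates 3 and 4, the WT libraries lowest in myeloid markers, Itgb1 stood at 0.04 ± 0.23 and Itgae at −0.18 ± 0.49. This pair was not planned in advance. Its libraries were also the WT libraries highest in Itgb1 and among the lowest in Itgae, so these moves followed from the choice itself.

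**Figure D5:**
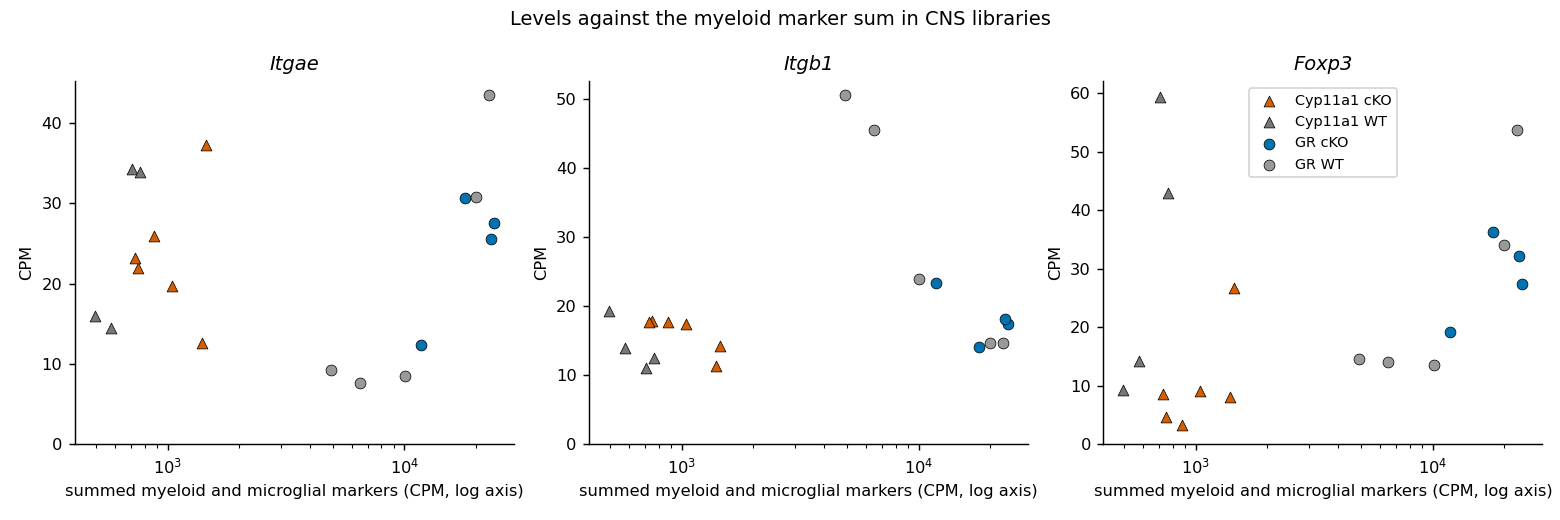
CPM of Itgae, Itgb1 and Foxp3 against the summed myeloid and microglial markers on a log axis, 1 point per CNS library, triangles for the Cyp11a1 and circles for the GR experiment. In the GR libraries Itgb1 is highest at 45.5 and 50.6 CPM where the sum is lowest, and Itgae and Foxp3 are highest at 43.5 and 53.6 CPM in the WT library with a sum of 22791 CPM.

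The balance of subunits that pair with each other or share a partner was described per library as the difference of log2(CPM + 1), without a test. Itgal minus Itgb2 was −1.69 ± 0.08 with TGF-β1 + Dex, −1.78 ± 0.06 with TGF-β1 and −1.29 ± 0.10 with Dex, against −1.60 ± 0.08 in Ctrl (SD, n = 3 each). The Dex libraries, at −1.39 to −1.20, lay above all Ctrl libraries, at −1.66 to −1.50, and the TGF-β1 libraries, at −1.83 to −1.71, lay below them. How often other gene pairs separate in this way was not counted. Itgb7 minus Itgb1, the β partners of α4, was 3.79 ± 0.36 in Cyp11a1 cKO and 4.42 ± 0.33 in Cyp11a1 WT, and 3.67 ± 0.33 in GR cKO and 3.15 ± 0.93 in GR WT, against 3.29 to 3.49 in the culture groups. Itgae minus Itga4, the α partners of β7, was −1.17 ± 0.60 with TGF-β1 + Dex, −0.17 ± 0.72 with TGF-β1 and −2.19 ± 0.26 with Dex, against −1.98 ± 0.13 in Ctrl. In the CNS it was −0.40 ± 0.50 in Cyp11a1 cKO and −0.72 ± 0.42 in Cyp11a1 WT, and −0.51 ± 0.66 in GR cKO and −1.19 ± 1.00 in GR WT. Itgae averaged 0.490 CPM with Dex and 0.830 CPM in Ctrl, less than the 1 CPM added before the logarithm. The differences in these groups therefore depend on the added value. Itgav minus Itgb1 was 1.25 to 1.56 in the culture groups and −0.77 to 0.04 in the CNS groups.

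The genotype comparisons also called 0 of the listed genes for other integrin subunits, integrin activation, adaptors, ligands, other homing receptors and TGF-β activation. Of these, 5, 16, 10, 7, 8 and 4 genes were tested for Cyp11a1 and 6, 17, 12, 9, 7 and 5 for GR. The list of adaptors was positive in all 10 tested genes for Cyp11a1 cKO against WT, with a median log2 fold change of 0.06 against 0.00 over all tested genes. For GR the same list had 5 positive and 7 negative genes. Integrin activation had 6 positive and 10 negative genes for Cyp11a1. The share of positive values over all tested genes is not given here, so no result about the adaptors is drawn.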

How the data were processed

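The deposited values are counts per gene, not normalised by the authors, in 3 tables, 1 per experiment. Per the labels, 2000 cells per library were sorted and polyadenylated RNA was amplified by a modified SMART-Seq2 protocol, which keeps no strand. Per the submitters' processing notes, RSEM 1.3.3 and mm10 were used, in roles not given in the sources used here. All 31 libraries were grouped by their labels, and 0 columns had no library.

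Counts were analysed per table in R 4.3.3 with edgeR 4.0.16: filterByExpr, TMM scaling, robust quasi-likelihood F tests and Benjamini-Hochberg adjustment over all tested genes, with a threshold of 0.05. The 12 culture libraries shared 1 fit. CPM are counts scaled by TMM library size, given as mean ± SD; effects are log2 fold changes ± SE. CPM per kb used exon lengths of GENCODE M21 on GRCm38. In simulated data for Dex against Ctrl on 10332 genes, 61 of 100 genes changed 2-fold and 89 of 100 changed 4-fold were recovered. The same numbers were 70 and 94 for Cyp11a1 on 10125 genes, and 58 and 91 for GR on 10597 genes. Unchanged genes called numbered 6 for Dex, 10 for Cyp11a1 and 6 for GR. Changes smaller than 2-fold were not simulated, so their recovery is not known.

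Members and lists were chosen with earlier results of these data known. Named were all members, Nr3c1, Cyp11a1, 4 target genes, other integrins past the threshold, up to 4 called genes per list and comparison (Skap1 and Cytip also where they ranked lower, and Kit and Pecam1, after their values were seen), and the 3 genes most like the 2 members with the largest F. A result in the list of other homing receptors is not reported here.

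Alternatives were other scalings, filters of none or a mean count of 50, DESeq2 1.42.0, limma 3.58.1 voom, a replicate term, compared groups alone, a myeloid covariate, repeat-like predicted genes left out (up to 54.6% of a library), and each library left out.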

Additional observations from a re-analysis of the deposited data

Results flagged for a closer look

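In the CNS groups, which held 4 to 6 libraries each, 34 sets of values of single members were examined for a library that stood apart, and 2 were found, where chance gives about 1 in 20 groups. Itgb2 in GR cKO replicate 2 stood at 337 CPM while the other 3 cKO libraries lay between 257 and 269 CPM. Itgb7 in GR cKO replicate 1 stood at 253 CPM while the other 3 lay between 236 and 238 CPM, a gap that is large only against the close agreement of those 3 libraries.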

How the results depend on the processing

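The counts of called members did not change by more than 1.5 times except with a mean count of at least 50, where 4 members were tested in culture and 1 each was called for TGF-β1 against Ctrl and for TGF-β1 + Dex against Dex, since Itgae and Itgb3 were not tested. Leaving out 1 library at a time gave 2 to 3 called members for TGF-β1 + Dex against Ctrl and for TGF-β1 against Ctrl, 2 for TGF-β1 + Dex against Dex and 0 elsewhere. Replicate numbers did not pair the libraries, since correlations of same-numbered deviations ran from −0.0188 to 0.0732 in culture, −0.139 to −0.0425 for Cyp11a1 and −0.238 to 0.125 for GR. With the replicate block the called members numbered 3 for TGF-β1 + Dex against Ctrl, 3 for TGF-β1 against Ctrl, 2 for TGF-β1 + Dex against Dex and 0 elsewhere. All sign changes were in values that did not pass, and their causes were not tested. By setting, these log2 values were −0.0155 for Itgb7 (TGF-β1 + Dex against Ctrl) and 0.059 for Itgae (Cyp11a1) with limma voom, and 0.194 for Itgae (Cyp11a1) with the replicate block. Without Cyp11a1 cKO replicates 5 and 6 Itgae was 0.148, and without Cyp11a1 WT replicates 1 and 4 Itgae was 0.611 and Itgb1 −0.0588. In the GR comparison Itgb7 was 0.0173 and Itgal 0.00873 with upper quartile scaling, 0.02 and 0.0104 with a mean count of at least 50, and Itgb7 was 0.000305 without repeat-like genes. With the myeloid covariate the GR values were 0.0365 for Itgb2, −0.329 for Itgae, 0.148 for Itgb3, 0.115 for Itgb1 and 0.182 for Itgal, and without WT replicates 3 and 4 they were −0.183 for Itgae, 0.113 for Itgb3, 0.0407 for Itgb1 and 0.111 for Itgal. Leaving out single libraries gave these ranges across 0. For Dex against Ctrl they were −0.334 to 0.0866 for Itga4. For TGF-β1 against Ctrl they were −0.165 to 0.117 for Itgb7, −0.438 to 0.222 for Itga4 and −0.0655 to 0.2 for Itgav. For TGF-β1 + Dex against Ctrl they were −0.102 to 0.163 for Itgb7, −0.109 to 0.184 for Itgb1 and −0.19 to 0.251 for Itgav. For TGF-β1 + Dex against TGF-β1 they were −0.00579 to 0.0473 for Itgb2, −0.0782 to 0.198 for Itgb7, −0.569 to 0.0961 for Itga4 and −0.278 to 0.159 for Itgav. For TGF-β1 + Dex against Dex they were −0.371 to 0.0322 for Itgb1. For the interaction they were −0.188 to 0.222 for Itgb3, −0.146 to 0.257 for Itgb1, −0.453 to 0.207 for Itga4 and −0.081 to 0.0262 for Itgal. For Cyp11a1 cKO against WT they were −0.249 to 0.153 for Itgae and −0.000209 to 0.647 for Itga1. For GR cKO against WT they were −0.0521 to 0.0586 for Itgb7 and −0.11 to 0.0342 for Itgal. With the longest coding transcript as length, at most 2 of 45 pairs of members changed order in a group, and 32 of 80 levels moved by more than their SD. With a pseudocount of 5 CPM, 10 of 32 subunit differences moved by more than their SD.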

Other observations

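Integrin genes outside the 10 also set the cultured cells apart from the CNS cells, as a description across tables that was not tested. Itga7, a laminin-binding α chain best known from muscle, was at 122 ± 9.28 CPM with TGF-β1 + Dex, 118 ± 8.46 CPM with TGF-β1, 113 ± 7.24 CPM with Dex and 112 ± 5.73 CPM in Ctrl (n = 3 each). In the CNS it averaged 0.179 CPM in Cyp11a1 cKO and 0.441 CPM in Cyp11a1 WT, and 1.14 CPM in GR cKO and 0.161 CPM in GR WT. Itga3, another laminin-binding α chain, was at 45.2 ± 3.85 CPM with both agents, 40.5 ± 3.72 CPM with TGF-β1, 43.7 ± 8.89 CPM with Dex and 45.2 ± 1.70 CPM in Ctrl, and at 4.09 ± 1.16 CPM in Cyp11a1 cKO and 5.00 ± 1.85 CPM in Cyp11a1 WT. In GR cKO Itga3 averaged 2.54 ± 0.431 CPM and in GR WT 3.82 ± 1.24 CPM. Neither gene was called in culture. Itgb5, an αv partner, averaged 37.9 ± 7.36 CPM in GR cKO and 29.4 ± 11.8 CPM in GR WT, where the myeloid sums were 11803 to 23934 and 4904 to 22791 CPM, and 3.94 ± 0.956 CPM in Cyp11a1 cKO and 5.26 ± 2.49 CPM in Cyp11a1 WT. These genes were chosen for this paragraph after their values were seen.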
